A study of Mus musculus with 2 samples.

Results

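This account covers 8 mouse genes, Acod1, Hcar2, Trem1, Trem3, Clec4d, Clec4e, Fpr1 and Fpr2, out of the 35208 gene rows of a single-cell RNA-seq matrix of inflamed ear skin. They were listed by name as activation receptors and immunometabolic genes of neutrophils, and they were selected on measured values, because several of them lead the neutrophil groups of these same cells. Their order across cell types is therefore a description and was not tested. All 8 had reads. Cells came from the ears of BALB/c mice, wild-type (WT) or Ccr2-/-, at days 3 and 5 after challenge in IgE-CAI, in which IgE and its antigen bring on lasting allergic inflammation of the skin. Every mouse was given TNP-specific IgE (300 µg) and afterwards TNP-OVA (10 µg) in the ear skin, TNP being a small hapten. The Ccr2-/- mice lack the receptor for CCL2 in every cell, and no group without challenge was analysed here. Each genotype and day was 1 pool marked by its own hashtag antibody, so there were 2 pools per genotype, the labels do not give the number or the age of the mice in a pool, and within a day there was no replicate.

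Neutrophils are short-lived granulocytes that leave the blood for inflamed tissue and sense damage and microbes through activating receptors on their surface. Trem1 and Trem3 encode receptors that signal through the adaptor Tyrobp, and Clec4d and Clec4e encode C-type lectins (MCL and Mincle) that bind glycolipids and signal through the adaptor Fcer1g and the kinase Syk. Fpr1 and Fpr2 encode G protein-coupled receptors for formyl peptides, which are released by bacteria and by mitochondria of dying cells, and Fpr2 also binds annexin A1 and serum amyloid A. Acod1 encodes the mitochondrial enzyme that makes itaconate from a citric acid cycle intermediate, and Hcar2 encodes a receptor for niacin and the ketone body beta-hydroxybutyrate.

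Of these genes, 6 stand in 3 neighbouring pairs in the mouse genome (GRCm38, GENCODE M21). Fpr1 (chr17:17876471-17883940, minus strand) and Fpr2 (chr17:17887824-17893952, plus strand) are 3883 bases apart and are transcribed away from each other. Clec4d (chr6:123262111-123275265, plus strand) and Clec4e (chr6:123281789-123289870, minus strand) are 6523 bases apart and are transcribed towards each other. Trem1 (chr17:48232768-48246924) and Trem3 (chr17:48247777-48258841) lie 852 bases apart on the plus strand. Acod1 (chr14:103046977-103056573, plus strand) and Hcar2 (chr5:123863570-123865499, minus strand, 1 exon) stand alone. The sequence upstream of the start is shown for both members of the Fpr and Clec4 pairs, because the members of each pair differed between the neutrophil clusters described below. They run 5′ to 3′ on the strand of the gene, are credited to RefSeq on GRCm38.p6, and carry in capitals each match to AGGAAG, a core of sites of the ETS family that includes PU.1, or to TTNNGNAA, a loose form of the C/EBP site, on either strand. The windows are chr17:17883941-17884189 for Fpr1 (minus strand), chr17:17887574-17887823 for Fpr2 (plus strand), chr6:123261857-123262106 for Clec4d (plus strand) and chr6:123289872-123290121 for Clec4e (minus strand).
Fpr1: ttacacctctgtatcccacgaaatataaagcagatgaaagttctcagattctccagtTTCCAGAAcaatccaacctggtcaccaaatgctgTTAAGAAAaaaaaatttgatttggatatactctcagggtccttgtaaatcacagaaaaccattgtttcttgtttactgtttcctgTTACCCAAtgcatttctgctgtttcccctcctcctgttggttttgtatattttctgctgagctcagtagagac
Fpr2: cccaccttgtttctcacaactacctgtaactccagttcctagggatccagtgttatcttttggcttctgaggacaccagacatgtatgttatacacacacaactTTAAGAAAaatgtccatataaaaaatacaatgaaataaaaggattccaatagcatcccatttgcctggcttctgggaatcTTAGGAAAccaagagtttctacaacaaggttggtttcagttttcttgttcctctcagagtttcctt
Clec4d: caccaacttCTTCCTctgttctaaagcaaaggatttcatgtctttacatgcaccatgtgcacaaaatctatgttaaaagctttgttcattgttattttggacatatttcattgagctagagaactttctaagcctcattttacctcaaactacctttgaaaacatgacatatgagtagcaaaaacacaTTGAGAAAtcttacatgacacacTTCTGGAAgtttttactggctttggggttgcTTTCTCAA
Clec4e: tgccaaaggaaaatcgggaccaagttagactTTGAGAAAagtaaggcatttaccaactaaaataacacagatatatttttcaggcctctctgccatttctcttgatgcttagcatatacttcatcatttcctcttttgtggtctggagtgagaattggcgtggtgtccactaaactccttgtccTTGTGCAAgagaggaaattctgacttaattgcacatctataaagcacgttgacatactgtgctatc

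A promoter sequence was matched for 6 of the 8 members, all but Hcar2 and Trem3. TTNNGNAA occurred in 5 of these 6 promoters, with 3 matches in Fpr1, 2 in Fpr2, 3 in Clec4d, 2 in Clec4e and 1 in Trem1, and 36.8% of all 32851 mouse promoters of this length held it. AGGAAG occurred in Clec4d, Trem1 and Acod1, against 29.5% of all promoters. GGNNNTTCC, a loose form of the NF-κB site, occurred in Acod1 and Trem1, against 15.7%, and TGANTCA, the AP-1 site, occurred in 0 of the 6, against 6.75%. No 2 of the matches to AGGAAG and TTNNGNAA overlapped in the sequences shown. These are matches of letters and were not tested as binding sites.

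The matrix held 548117598 reads in 8953 barcodes, beside 10000 cells loaded. After hashtag assignment and filtering, 7118 cells were kept, with 68064673 to 162572556 reads per pool. The values are reads and not molecules, so that PCR copies count more than once and every interval given here covers counting error only. Levels are the reads of a gene per 1000000 reads (CPM) of the summed cells of a type in a pool. They depend on the length of a transcript and are compared between cells, not between genes. Cells were named from transcripts alone, hence "-like". Ccr2 itself had 940 and 679 CPM in the WT monocyte-macrophage-like (Mo-Mac-like) cells and 89.5 and 28.0 CPM in those of the Ccr2-/- pools. The neutrophil-like cells held reads of 8 or 9 of 9 neutrophil markers in each pool with S100a9 at 13573 to 36485 CPM, while Ly6g, which many antibodies to neutrophils bind, had no read in the WT cells and 18.6 to 32.1 CPM in the Ccr2-/- cells. The neutrophil-like cells numbered 53 and 6 in WT at days 3 and 5, and 401 and 790 in Ccr2-/- pools. Values of WT day 5 neutrophil-like cells therefore rest on 6 cells and are given for completeness. The neutrophil-like cells were shallow, with a median of 8258 to 11792.5 reads per cell, while the Mo-Mac-like cells had 45628 to 60326.

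All 8 genes had their highest level in neutrophil-like cells in each of the 3 pools with at least 20 such cells. Among 7082 genes of at least 20 CPM in either type in the Ccr2-/- pools, 30.7% were higher in neutrophil-like than in Mo-Mac-like cells in both, and all 8 members were among them; the members were chosen for this pattern, so nothing is read from that count.

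Acod1, the itaconate enzyme, had 2510.2 CPM in neutrophil-like cells of the earlier WT pool, 648 in the later one, and 3058 and 3068 in the earlier and later Ccr2-/- pools. In the Ccr2-/- pools it stood 1603-fold above the Mo-Mac-like cells at day 3 and 123-fold at day 5, where the Mo-Mac-like level was 1.91 and 24.9 CPM. Hcar2, the niacin and ketone body receptor, had 1524, 807.1, 1928 and 1795 CPM in the same order of pools. Both genes were thus close between the 3 pools with many cells, and both were lower in the 6 cells of WT day 5. Between the Ccr2-/- days the ratio was 1.003 (0.983 to 1.02) for Acod1 and 0.931 (0.907 to 0.956) for Hcar2.

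Of the Tyrobp-coupled receptors, Trem1 had 1618, 1663, 1566 and 2023 CPM in neutrophil-like cells, in the same order of pools. Trem3 had 195, 36.7, 189.6 and 289 CPM, the WT day 5 value being 3 reads. These were the members with the largest ratios of day 5 to day 3 in the Ccr2-/- pools, 1.29 (1.26 to 1.33) for Trem1 and 1.53 (1.41 to 1.65) for Trem3. The share of cells with a Trem3 read was 22.2% (18.2 to 26.6) at Ccr2-/- day 3 and 28.6% (25.5 to 31.9) at day 5. With 1 pool per day, these differences between days have no replicate check.

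Of the C-type lectins, Clec4d had 2489, 1418, 2624 and 2501 CPM in the 4 pools, and Clec4e had 2760.2, 3509, 2538 and 2755 CPM. Clec4e was the only member whose level in the 6 WT day 5 cells was the highest of the 4 pools. Clec4d was the most widely detected of the 8, with a read in 94.3% (84.3 to 98.8) of neutrophil-like cells at WT day 3, 89.0% (85.6 to 91.9) at Ccr2-/- day 3 and 90.5% (88.2 to 92.5) at Ccr2-/- day 5. Clec4e was read in 77.4, 74.3 and 77.7% of the same cells.

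Of the formyl peptide receptors, Fpr1 had 337 CPM at WT day 3, 236 at Ccr2-/- day 3 and 243 at Ccr2-/- day 5. In the 6 WT day 5 cells it had 0 reads, and its upper 95% bound there was 45.1 CPM. Fpr2 had 862, 171, 1216 and 1104 CPM in the 4 pools. Fpr2 shares sequence with its relatives: of 1295 stretches of 50 bases in its transcripts, 28.4% also occur in Gm5966 and 6.33% in Fpr3, so its reads could have been split between them and its level is uncertain. The row of Gm5966 held at most 2.15 CPM in the neutrophil-like cells of any pool. Fpr1 shares 1 stretch of 1275, with Fpr2, and the other 6 members share none. Fpr3, which overlaps Fpr2 on the same strand, had 0 and 1.20 CPM in the Ccr2-/- neutrophil-like cells.

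**Figure D1:**
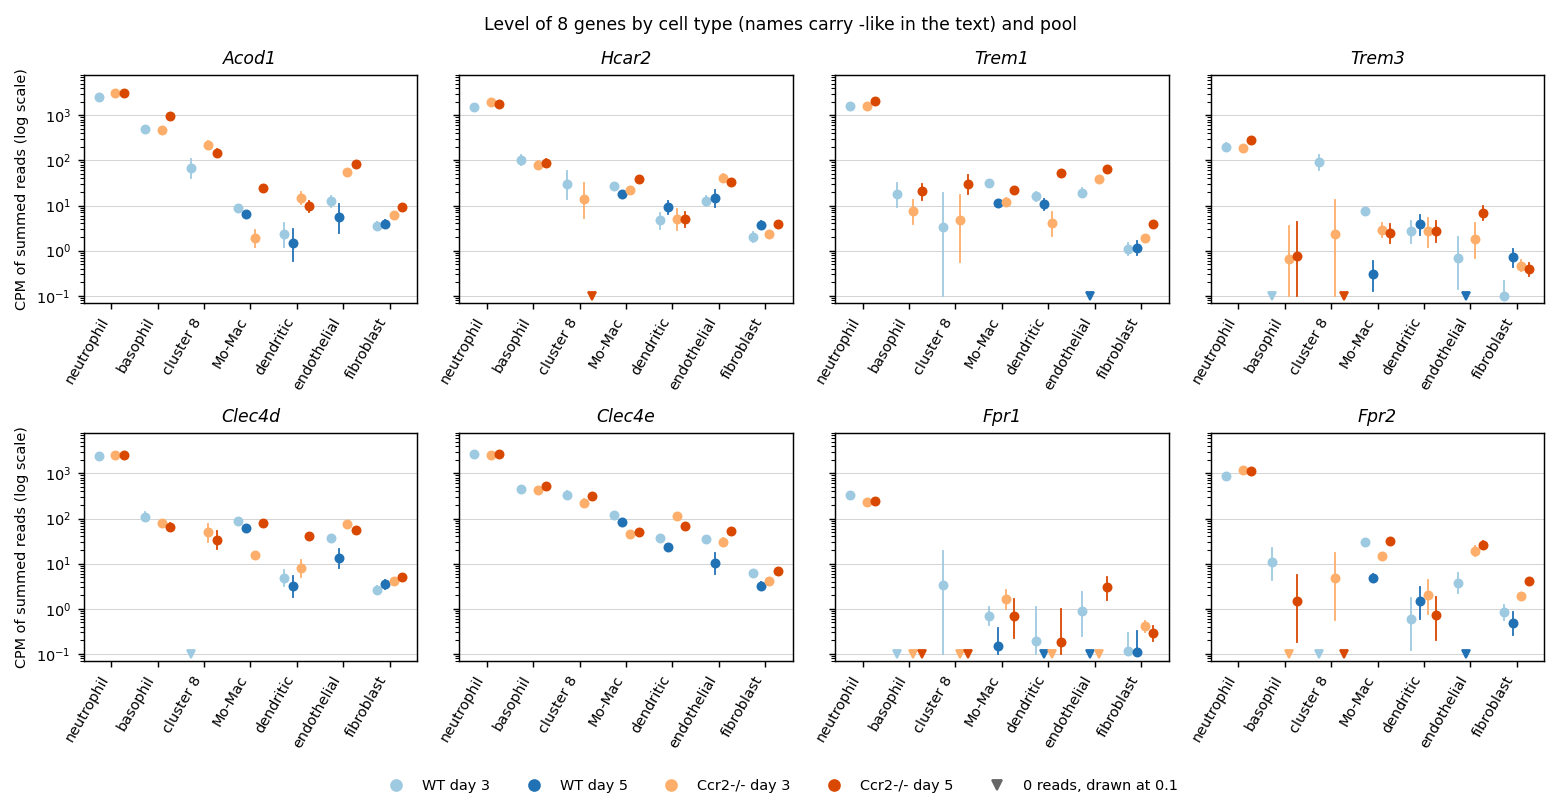
Level of the 8 genes (CPM of summed reads, log scale) in 7 groups of cells and up to 4 pools; points are 1 pool each, bars are exact Poisson 95% intervals, groups under 20 cells are left out and triangles mark 0 reads. Neutrophil-like cells hold the highest point of every gene, and basophil-like cells are next for Acod1 (466 to 957 CPM) and Clec4e (435 to 515 CPM) but hold no Fpr1 read.

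The genotypes were close in neutrophil-like cells at day 3, the only day with enough cells in both. The ratio of Ccr2-/- to WT lay between 0.702 (0.597 to 0.826, Fpr1) and 1.41 (1.28 to 1.55, Fpr2). Acod1 (1.22, 1.15 to 1.29) and Hcar2 (1.27, 1.18 to 1.36) were above 1, and the intervals of Trem1, Trem3 and Clec4d included 1. A single cell held 30.4% of the Fpr1 reads of WT day 3. Each ratio compares 2 pools, with 53 and 401 cells, and was not tested.

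Single neutrophil-like cells carried several of these genes at once. A cell held reads of 5.11 of the 8 members on average at WT day 3, 4.88 at Ccr2-/- day 3 and 5.08 at Ccr2-/- day 5. In the Ccr2-/- pools, 985 of 1191 cells (82.7%) held at least 4 members, 49 held all 8 and 3 held none. When each cell was thinned to 3000 reads, the mean in the Ccr2-/- pools was 4.56 members, against 0.345 in Mo-Mac-like cells and 0.0709 in fibroblast-like cells. Fibroblast-like cells, which should lack these genes and which were far deeper (median 72861 to 136290.0 reads in the 3 pools with at least 20 neutrophil-like cells), held a read of any 1 member in at most 2.82% of cells at that depth, the value of Acod1 at Ccr2-/- day 5, where 73.8% of neutrophil-like cells held one. Unthinned, the Acod1 share in those fibroblast-like cells was 21.0%.

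Outside the neutrophil-like cells, basophil-like cells held a sizeable level of 2 members. Basophils are the granulocytes that carry IgE receptors and release histamine and interleukins when IgE is cross-linked. Acod1 had 506 CPM (452 to 563) in 27 basophil-like cells at WT day 3, 466 (433 to 501) in 66 cells at Ccr2-/- day 3 and 957 (904 to 1011) in 62 cells at Ccr2-/- day 5. Clec4e had 441 (392 to 495), 435 (403 to 469) and 515 (476.5 to 555) CPM in the same cells. These levels were 15.2 to 31.2% of the neutrophil level for Acod1 and 16.0 to 18.7% for Clec4e. Reads of Acod1 were found in 18 of 27, 39 of 66 and 34 of 62 basophil-like cells, and those of Clec4e in 16, 34 and 23. The largest single cell held 10.9 to 18.5% of the Acod1 reads, and for Clec4e 12.04 to 36.6%.

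The other 6 members were low in the same basophil-like cells. Hcar2 stood at 4.14 to 6.64% of its neutrophil level, Clec4d at 2.62 to 4.43% and Trem1 at 0.49 to 1.14%. Fpr2 had 7, 0 and 2 reads, Trem3 had 0, 1 and 1, and Fpr1 had 0 in all 3 pools. The 9 neutrophil markers, summed, had 338 to 752 CPM in these cells, which was 0.503, 0.782 and 1.48% of their sum in the neutrophil-like cells of the same pools, and S100a8 had 8.31 to 42.7 CPM. Relative to neutrophil-like cells, Acod1, Clec4e, Hcar2 and Clec4d each stood higher in basophil-like cells than the summed neutrophil markers did, in all 3 pools. The part of neutrophil RNA in these values was not tested.

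Cluster 8, an unnamed group of shallow cells (median of 4390.0 reads) led by Retnlg, Alox15 and Ccr3, followed basophil-like cells for Clec4e, with 330 CPM at WT day 3, 227 at Ccr2-/- day 3 and 309 at Ccr2-/- day 5. Acod1 had 68.1, 219 and 147 CPM there, with the 20 reads of WT day 3 in 2 cells. All 27 Trem3 reads of this cluster at WT day 3 came from 1 cell. The summed neutrophil markers of cluster 8 were at 14.8 to 22.7% of the neutrophil-like sum, and whether reads or cells of neutrophils took part in its values was not tested. Blood endothelial-like cells of the Ccr2-/- pools held the members at 1.97 and 2.37% of the summed neutrophil level, beside summed neutrophil markers at 3.59 and 2.24%. Mural-like cells, led by Myh11 and Rgs5, numbered 12 and 18 in the Ccr2-/- pools, under the limit of 20 in each. Over both together they were second to neutrophil-like cells for Hcar2 and Trem1 (93.3 CPM each), Clec4d (138), Fpr2 (115), Fpr1 (10.9) and Trem3 (9.53). At WT day 3, with 25 cells, they were second for no member. A part of neutrophil RNA in both types was not tested.

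The neutrophil-like cells formed 2 clusters, numbered 1 and 4, which were found without the members among the clustered genes. Cluster 1 was led by Il1a, Cstdc4 and Fpr2, and cluster 4 by Mrgpra2b, S100a9 and S100a8. Members were among the 10 leading genes of both, Fpr2 and Hcar2 in cluster 1 and Trem3, Fpr1 and Trem1 in cluster 4, and they were selected as such genes, so the levels in the clusters are a description and were not tested. The members did not share 1 direction between them. Trem1, Trem3, Clec4d and, in the Ccr2-/- pools, Fpr1 were higher in cluster 4, while Hcar2, Clec4e and Fpr2 were higher in cluster 1, and Acod1 was near equal. Cluster 1 had 21, 317 and 537 cells and cluster 4 had 32, 84 and 253 cells in the 3 pools with enough of them (WT day 3, then days 3 and 5 of Ccr2-/-).

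Fpr2 had 968, 1352 and 1256 CPM in cluster 1 and 791, 659.9 and 760.2 CPM in cluster 4, ratios of 1.22, 2.05 and 1.65 of cluster 1 over cluster 4. Its neighbour Fpr1 had 413, 219 and 179.9 CPM in cluster 1 and 285, 306 and 387 CPM in cluster 4, ratios of 1.45 (1.08 to 1.961), 0.717 and 0.466. The pair thus went opposite ways in both Ccr2-/- pools, and at WT day 3 it did not. In that WT pool 1 cell held 31.8% of the cluster 1 reads of Fpr1, and 1 cell held 60.5% of its cluster 4 reads. Without the top cell of each cluster, Fpr1 had 301 CPM in cluster 1 and 117 CPM in cluster 4. Clec4e had 3875, 2743 and 2992 CPM in cluster 1 and 2001, 1699 and 2220.2 CPM in cluster 4, while its neighbour Clec4d had 1785, 2546 and 2266 CPM in cluster 1 and 2967, 2944 and 3030.2 CPM in cluster 4. This pair went opposite ways in all 3 pools, with ratios of 1.94, 1.61 and 1.35 for Clec4e and 0.601, 0.865 and 0.748 for Clec4d.

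Trem3, with the lowest of these ratios in the Ccr2-/- pools, had 175, 149.6 and 213 CPM in cluster 1 and 208, 353 and 463 CPM in cluster 4. The ratio was 0.840 (0.558 to 1.26) at WT day 3, 0.424 at Ccr2-/- day 3 and 0.459 at Ccr2-/- day 5. Its neighbour Trem1 went the same way, with ratios of 0.719, 0.773 and 0.581. Hcar2 had ratios of 1.19, 1.47 and 1.44, and Acod1 of 0.961, 1.08 and 0.925. In cluster 4 the summed neutrophil markers stood at 126, 177 and 154% of their level over all neutrophil-like cells of the pool, and in cluster 1 at 62.1, 81.2 and 76.0%.

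**Figure D2:**
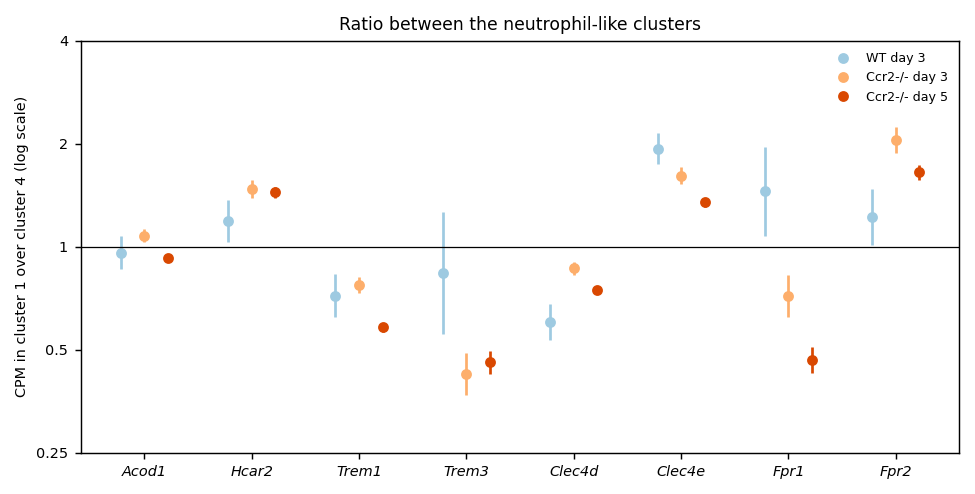
Ratio of the level (CPM of summed reads) in neutrophil-like cluster 1 to that in cluster 4 for the 8 genes, on a log scale, with 1 point per pool and bars for the 95% interval of the ratio from counting alone; WT day 5, with 6 cells in all, is left out. Hcar2, Clec4e and Fpr2 lie above 1 and Trem1, Trem3 and Clec4d below 1 in all 3 pools, and Fpr1 lies above 1 at WT day 3 and below 1 in both Ccr2-/- pools.

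In Mo-Mac-like cells, which were fewer in the Ccr2-/- pools, the members were low but not even across sub-clusters. The WT pools of days 3 and 5 held 493 and 466 such cells, and the Ccr2-/- pools 138 and 94. The sub-clusters, found without the members among the clustered genes, had different mixes of days, so their levels are given within WT day 3 for the 6 with at least 20 cells there. Sub-clusters 5 (monocyte-like, 88 cells), 0 (early CMDM-like, 177 cells, CMDM standing for classical monocyte-derived macrophage), 2 (monocyte-derived DC-like, 64 cells) and 3 (resident-like, 38 cells) are called by their markers. Sub-cluster 1 (36 cells), led by Atp6v0d2, Gzma and Lhfpl2, had none of the resident-like markers among its leading genes and is called by its number, as is sub-cluster 4 (60 cells), which was shallow with a median of 8915.5 reads per cell. Trem1 is itself among the 10 leading genes of sub-cluster 5, and none of these differences was tested.

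Clec4e had 488 CPM (465 to 512) in monocyte-like cells, 158 (144 to 173) in sub-cluster 1, where 1 cell held 59.4% of the reads, 125 (113 to 139) in monocyte-derived DC-like, 39.8 (36.4 to 43.5) in early CMDM-like, 29.2 in sub-cluster 4 and 5.50 in resident-like cells. Trem1 had 164 CPM (150.2 to 178) in monocyte-like cells and 0.684 to 19.3 in the other 5 sub-clusters. Fpr2 had 132 CPM (120.1 to 145) against 0 to 9.50, and Trem3 had 40.1 CPM (33.6 to 47.4) against 0 to 3.78. These 4 members were highest in monocyte-like cells among the 6 sub-clusters, also without the cell that held most reads of each.

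Clec4d was highest in sub-cluster 1, with 328 CPM (307 to 349) against 226 (211 to 243) in monocyte-like cells. A single cell held 32.5% of the Clec4d reads of sub-cluster 1, and without the top cell of each the levels were 236 and 206 CPM. Hcar2 had 64.6 CPM in sub-cluster 4, 27.3 (24.5 to 30.3) in early CMDM-like cells and 13.6 (9.92 to 18.1) in monocyte-like cells. Acod1 was highest in sub-cluster 1, with 25.0 CPM, of which 71.2% came from 1 cell, and its 11.5 CPM in monocyte-like cells fell to 1.78 without 1 cell. Fpr1 had 12 reads in monocyte-like cells, 10 of them in 1 cell, and 7 in early CMDM-like cells.

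The smaller sub-cluster 7, led by the interferon-induced genes Rsad2 and Ifit1bl1, had 15 cells at WT day 3. It held 86.1 CPM of Acod1, 154 of Hcar2 and 241 of Fpr2, above each of the 6 larger sub-clusters, and 1 cell held 73.8, 52.0 and 27.7% of these reads. At WT day 3 the level in neutrophil-like cells was 283 times that in Mo-Mac-like cells for Acod1 and 475 times for Fpr1, and 23.2 to 56.3 times for the other 6 members. The summed neutrophil markers of the Mo-Mac-like cells were at 0.358 to 0.822% of the neutrophil-like sum; how much of these low levels came from neutrophil RNA was not tested.

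**Figure D3:**
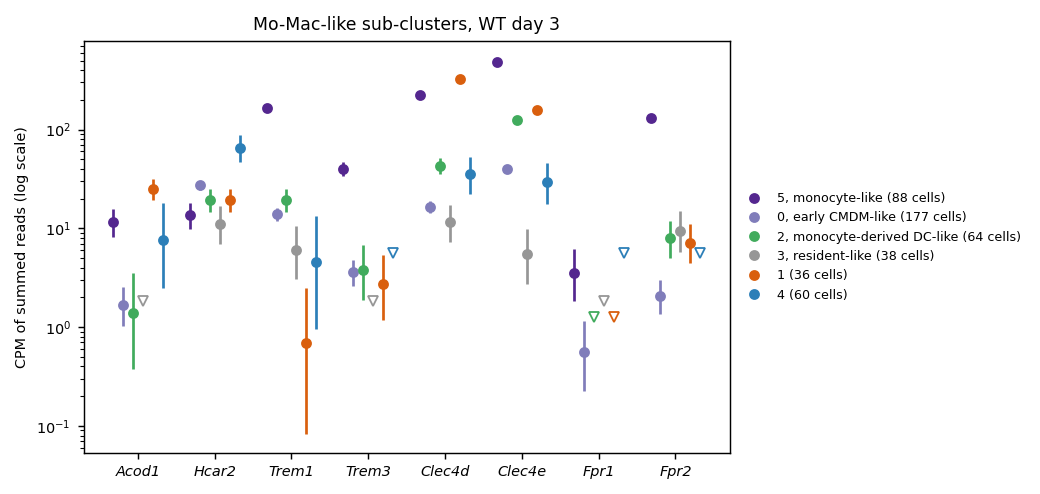
Level of the 8 genes (CPM of summed reads, log scale) at WT day 3 in the 6 sub-clusters of Mo-Mac-like cells with at least 20 cells there; bars are exact Poisson 95% intervals, and triangles mark the upper bound where there were 0 reads. Monocyte-like cells hold the highest point for Clec4e, Trem1, Trem3, Fpr2 and Fpr1, with 10 of the 12 Fpr1 reads in 1 cell, while Acod1 and Clec4d are highest in sub-cluster 1 and Hcar2 in sub-cluster 4.

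The pool decided which cells supplied the reads. In the Ccr2-/- pools 81.9 to 96.6% of the reads of each member lay in neutrophil-like cells. In the WT pools together, Mo-Mac-like cells held 45.9 to 67.4% of the reads of Hcar2, Trem1, Trem3, Clec4d, Clec4e and Fpr2, and neutrophil-like cells held 19.7 to 39.0% of them. Acod1 and Fpr1 differed from these, with 54.1 and 82.2% of their WT reads in neutrophil-like cells. Most WT reads of both came from day 3, with 2091 of 2456 for Acod1 and 200 of 208 for Fpr1. At WT day 5 neutrophil-like cells held 14.5% of the Acod1 and 0% of the 8 Fpr1 reads, and Mo-Mac-like cells 49.04 and 50%. Hcar2 had more reads in neutrophil-like than in Mo-Mac-like cells at WT day 3. Of the 50 Trem3 reads of WT day 5, Mo-Mac-like cells held 16%, fibroblast-like cells 38% and dendritic cell-like cells 36%. At WT day 5, where 6 cells were neutrophil-like, Mo-Mac-like cells held 86.3% of Clec4d, 79.3% of Clec4e and 78.4% of Fpr2 reads.

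**Figure D4:**
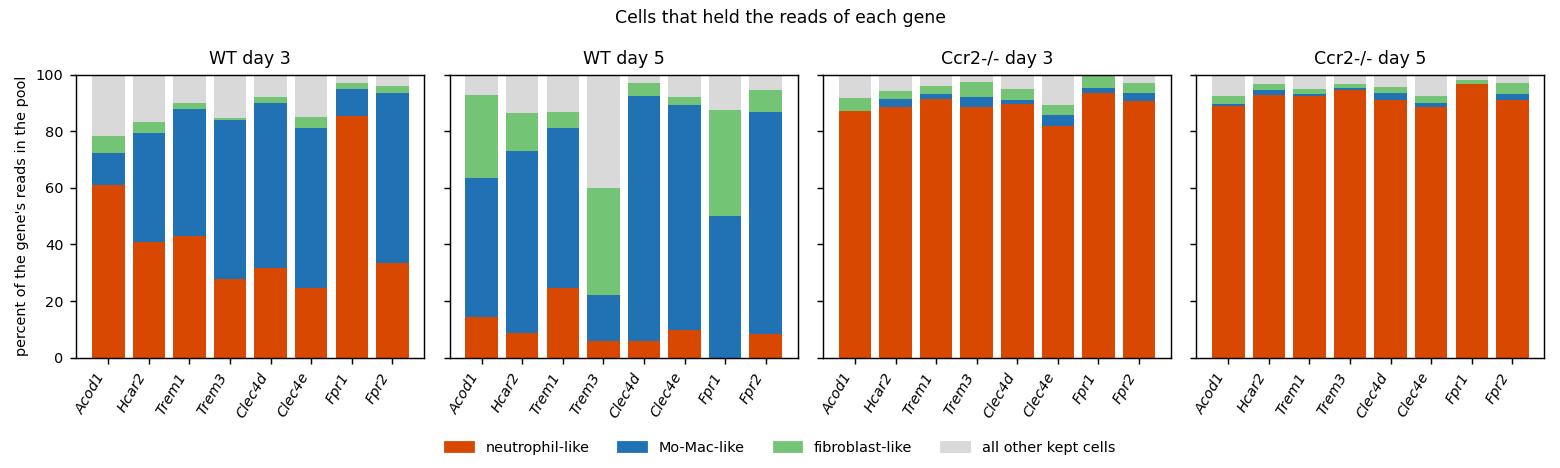
Percent of the reads of each gene in a pool that lay in neutrophil-like, Mo-Mac-like, fibroblast-like and all other kept cells; each bar adds up to 100%. Neutrophil-like cells hold most reads of every gene in both Ccr2-/- pools, and Mo-Mac-like cells hold most reads of Clec4d, Clec4e and Fpr2 in both WT pools.

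Whether the genotypes differed over the whole lesion was asked with the reads of all kept cells of a pool. All 8 members were higher in both Ccr2-/- pools than in either WT pool, and none passed the test across genes. Of 23697 genes tested, 11824 had a log2 difference above 0. How many of all genes lay apart by pool in this way was not counted, so nothing particular to the members is read from the 8. Sums over a pool do not by themselves separate more cells of a type from more RNA per cell. Neutrophil-like cells were 3.43 and 0.579% of the kept cells in the WT pools and 18.3 and 33.7% in the Ccr2-/- pools. The levels of all 8 within neutrophil-like cells are compared between genotypes at day 3 above. The part of cell numbers in the whole-pool differences was not tested. Acod1 had 23.4 and 5.36 CPM in the WT pools of days 3 and 5 and 93.6 and 195 CPM in the Ccr2-/- pools, and its log2 difference was 3.59 (SE 0.95, adjusted p = 0.169, edgeR's quasi-likelihood test). Fpr1 had 2.23 and 0.118 CPM against 6.74 and 14.2 CPM, a log2 difference of 3.77 (SE 1.53, adjusted p = 0.277, edgeR). Fpr2 had 14.7 and 2.45 CPM against 35.8 and 68.4 CPM (log2 difference 3.01, SE 1.04).

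Hcar2, with 21.1 and 11.2 CPM in WT pools against 58.0 and 109 CPM, had the smallest adjusted p of the 8 (log2 difference 2.40, SE 0.51, adjusted p = 0.134, edgeR). Clec4d had 44.5 and 28.4 CPM against 78.0 and 155 CPM (log2 difference 1.66, SE 0.44), and Clec4e had 63.3 and 42.7 CPM against 82.6 and 176 CPM (1.24, SE 0.44). Trem1 had 21.3 and 8.07 CPM against 45.8 and 124 CPM (2.54, SE 0.82), and Trem3 had 3.98 and 0.735 CPM against 5.71 and 17.3 CPM (2.47, SE 1.22).

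With edgeR, 0 of the 8 members and 0 of 23697 genes (0%) passed an adjusted p of 0.05, while 4 members and 5247 genes had an unadjusted p under it. The median log2 difference was 2.50 over the members and -0.0014 over all genes tested. DESeq2 called 4 members, of 2808 genes in all. The count of members passing changed when the WT day 3 pool was left out. That fit had genotype as its only term, and its single WT pool is assumed to vary like the Ccr2-/- pools, so no count is read from it. The main edgeR fit, with day and genotype, left 1 residual degree of freedom. An exact permutation of 2 against 2 pools cannot give a two-sided p under 0.333.

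Within Mo-Mac-like cells, the genotypes were compared in the same way, and the members took no common direction: 5 of 8 had a log2 difference above 0. Clec4e was the member with the smallest p. Its WT pools held 119 and 85.3 CPM against 46.2 and 49.8 CPM in Ccr2-/-, which do not overlap, and its log2 difference was -1.02 (SE 0.22, adjusted p = 0.177, edgeR's quasi-likelihood test). The monocyte-like sub-cluster was highest for Clec4e among the larger ones at WT day 3. It made up 88 of 493 Mo-Mac-like cells at day 3 and 5 of 466 at day 5 in WT. In the Ccr2-/- pools it made up 9 of 138 at day 3 and 6 of 94 at day 5, so its share was lower than in WT at day 3 and higher at day 5. Its part in the difference was not tested. Clec4d had 86.4 and 61.7 CPM against 15.3 and 79.6 CPM, and Acod1 had 8.87 and 6.63 against 1.91 and 24.9 CPM, so that the Ccr2-/- pools lay on both sides of the WT pools. A single cell held 44.1% of the Clec4d reads and 46.9% of the Acod1 reads of Ccr2-/- day 5. With edgeR, 0 of 8 members and 0 of 16523 genes (0%) passed, and 1 member and 2579 genes had an unadjusted p under 0.05. Clec4e passed with DESeq2 (adjusted p = 0.0149) and without a filter on low counts. It also passed without the WT day 5 pool, in a fit that had no day term and 1 WT pool, assumed to vary like the Ccr2-/- pools.

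**Figure D5:**
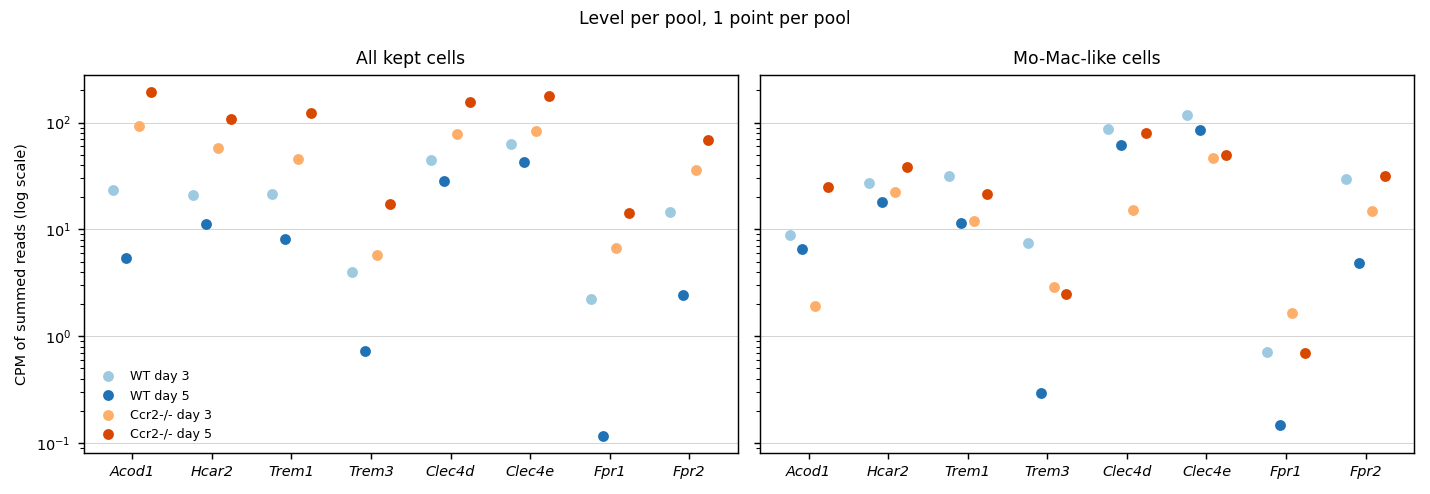
Level of the 8 genes (CPM of summed reads, log scale) over all kept cells of a pool (left) and over its Mo-Mac-like cells (right), with 1 point per pool. Over all kept cells both Ccr2-/- points lie above both WT points for every gene shown, and in Mo-Mac-like cells the genotypes are separate for Clec4e, with Ccr2-/- lower. How many of all genes lie apart in this way was not counted.

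Of the lists of partner genes, the adaptors and signalling genes of these receptors were the most uniform in the Ccr2-/- pools. Of 8, 7 reached 20 CPM in neutrophil-like or Mo-Mac-like cells over both Ccr2-/- pools together. All 7 were higher in neutrophil-like cells in both Ccr2-/- pools, where 30.7% of genes were. Card9 was left out, with 18.5 CPM over both in neutrophil-like cells, and its direction differed between the pools. It had 13.6 and 21.0 CPM at days 3 and 5, against 14.0 and 14.3 in Mo-Mac-like cells. Bcl10, among the 7, was near equal, with 129 and 156 CPM against 113 and 143. Fcer1g, the adaptor of the lectins, had 3070.3 and 2966 CPM in Ccr2-/- neutrophil-like cells at days 3 and 5, against 1305 and 1436 CPM in Mo-Mac-like cells. Tyrobp, the adaptor of Trem1 and Trem3, had 2349 and 2452 CPM against 406 and 571. Syk, the kinase that both adaptors recruit, had 452 and 609 CPM against 73.4 and 107.9. At WT day 3, Fcer1g was close between the types, with 1768 CPM against 1620, and not all 7 genes were higher in neutrophil-like cells.

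The other receptors were mixed. Of the TREM locus, Treml2 (237 and 191 CPM against 19.3 and 21.0) and Treml4 (69.4 and 43.6 against 0 and 2.23) were higher in neutrophil-like cells. Trem2, a lipid sensor of macrophages, was lower, with 7.61 and 6.81 CPM against 126 and 173. Of 5 other C-type lectins of 20 CPM, 2 were higher and 3 lower in neutrophil-like cells. Clec7a, the beta-glucan receptor, had 8153 and 6677 CPM against 194 and 153, and Clec4n, which binds mannans, had 919 and 823 against 43.1 and 154. Hcar1, the lactate receptor beside Hcar2 in its family, had 0 reads in Ccr2-/- neutrophil-like cells. Trem4 and 4 further formyl peptide receptor genes were not analysed here.

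Of 10 genes around itaconate, 8 were lower and 2 higher in neutrophil-like cells of both Ccr2-/- pools. There 4364 of all 7082 genes were lower, so nothing particular to the list is read from that count. Idh3a, a subunit of isocitrate dehydrogenase, had 3.23 and 2.87 CPM in these pools against 64.0 and 62.4 in Mo-Mac-like cells. Slc25a1, the mitochondrial citrate carrier, had 7.38 and 2.27 against 38.4 and 32.8. At WT day 3, Idh3a went the other way, with 45.3 CPM against 38.6, and Slc25a1 had 0 against 50.2. The 2 that were higher in the Ccr2-/- pools are regulators. Irf1, a transcription factor of interferon responses, had 1027 and 959.6 CPM there against 246 and 366. Nfe2l2, the transcription factor of the antioxidant response, had 296 and 318 against 84.7 and 123. Of 5 ligand genes, 2 were higher in neutrophil-like cells and 3 lower. Pglyrp1, a ligand of Trem1, had 116 CPM at both days against 0.454 and 4.59, and Saa3, a serum amyloid A, had 220.2 and 212 against 215 and 106. Anxa1, the annexin that binds Fpr2, had 340.4 and 325 CPM against 441 and 591, and Hmgb1, a nuclear protein released from dying cells, had 167 and 188 against 393 and 447. In the edgeR fits between genotypes, 0 genes of any of these lists passed, in whole pools or in Mo-Mac-like cells.

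The genes whose levels across 52 groups of cells (a type in a pool, with at least 20 cells) were most like those of the members, by Pearson's r of log2(CPM + 1) over 14813 genes, are given as a description, since all groups come from 1 library and share its depth differences. Acod1 was most like Cxcr2 (r = 0.902), Cxcl2 (0.857) and Ccl3 (0.848), which encode a neutrophil chemokine receptor and 2 chemokines. Cxcl2, Cxcr2 and Nlrp3 (0.832, 0.824 and 0.801) were most like Hcar2, and Cxcl2, Il1b and Cxcr2 (0.835, 0.823 and 0.807) most like Clec4d. Il1b (0.872), S100a8 (0.851) and Cstdc4 (0.849) were nearest to Trem1, and Gm49368, Cxcl2 and Il1b (0.884, 0.854 and 0.850) to Clec4e. Fpr1 was nearest to Gm39321, Gm2511 and Stfa1 (0.962, 0.956 and 0.955), Fpr2 to Mmp8, Gm13822 and Csta3 (0.876, 0.866 and 0.858), and Trem3 to Klra2, Trim30b and Gad1 (0.874, 0.849 and 0.841). Among the members, the closest pairs were Acod1 with Clec4e (0.871), Trem3 with Fpr1 (0.868) and Trem1 with Clec4d (0.866), and the least alike were Trem3 and Clec4d (0.622).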

How the data were processed

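Cells of ear skin lesions were measured by TAS-Seq on BD Rhapsody as 1 cDNA and 1 hashtag library. The deposited counts are reads per gene and barcode and reads per hashtag and barcode. The authors trimmed with Cutadapt, aligned to Ensembl mouse RNA (GRCm38.p6) with Bowtie2 and took as cells the barcodes past the inflection point of a knee plot. Strand use in counting was not established for the single-cell library. A background subtraction is described in the methods, and whether the deposited counts carry it was not established.

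A barcode was given to its highest hashtag after division by hashtag totals, if at least 3 times the next and with at least 10 hashtag reads: 7623 were assigned, 570 held several hashtags (removed as doublets) and 760 too few reads; 9 other hashtag columns were not used. Cells needed 200 genes and at most 20% mitochondrial reads. Scanpy 1.11.5 took 2000 variable genes, without the members and the listed partner genes, 30 components, 20 neighbours and Leiden resolution 1; of 25 clusters, 3 stayed unnamed. A further Leiden clustering, with these settings, was run on Mo-Mac-like cells. Clusters were named from fixed markers, but Mo-Mac sub-clusters whose leading genes held no marker of their list are called by number; the members, lists, marker lists and naming limits were chosen with earlier results of these data known. Groups came from the hashtags, as the labels give them. Intervals are exact Poisson (levels) and Clopper-Pearson (shares), at 95%; ratio intervals are from counts. Groups of under 20 cells were left out of orders of types.

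Genotypes were compared with edgeR 4.0.16 (quasi-likelihood, TMM, day and genotype as terms, Benjamini-Hochberg over all genes) on reads summed per pool; DESeq2 1.42.0 (R 4.3.3) was an alternative. On simulated data, 49 of 50 genes changed 8-fold were recovered for whole pools (23697 genes) and 45 of 50 for Mo-Mac-like cells (16523 genes), but 2 of 50 changed 2-fold in each. The simulation gave every gene the same spread between pools and no effect of day. These counts therefore do not give the recovery in the data themselves, where genes differ in spread. Genes named besides the members: per list the 2 highest in Ccr2-/- neutrophil-like cells and the 2 with the largest ratio to Mo-Mac-like cells in 1 direction, and per member the 3 most alike. Leading genes of clusters are named only to describe them. Alternatives covered normalization, filters, hashtag ratio, mitochondrial limit, deep cells, clustering, a marker gate, fixed depth and each pool left out, the last with genotype as the only term.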

Additional observations from a re-analysis of the deposited data

Results flagged for a closer look

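In Mo-Mac-like cells, 5 members moved opposite ways between days 3 and 5 in the 2 genotypes: the level at day 5 was above that of day 3 in Ccr2-/- and below it in WT. The share of all genes that did so was not counted, so nothing particular to the members is read from that count. The ratio of day 5 to day 3 was 13.1 in Ccr2-/- and 0.747 in WT for Acod1, 5.21 and 0.714 for Clec4d, and 2.13 and 0.165 for Fpr2. For Trem1 it was 1.78 and 0.358, and for Hcar2 1.72 and 0.669. Each ratio sets 1 pool against 1 pool, 138 cells at day 3 and 94 at day 5 in Ccr2-/-, and the difference between the genotypes was not tested. At Ccr2-/- day 5 a single cell held 46.9% of the Acod1, 44.1% of the Clec4d, 33.6% of the Trem1, 30.8% of the Fpr2 and 20% of the Hcar2 reads. Without that cell of each gene, the day 5 levels were 13.5 CPM in place of 24.9 for Acod1, 45.8 in place of 79.6 for Clec4d, 14.4 in place of 21.6 for Trem1, 22.2 in place of 31.6 for Fpr2 and 31.0 in place of 38.2 for Hcar2, all still above the day 3 levels of 1.91, 15.3, 12.1, 14.8 and 22.3 CPM. At Ccr2-/- day 3 a single cell held 71.8% of the Fpr2 reads. Summed neutrophil markers in these Mo-Mac-like cells were 155 CPM at Ccr2-/- day 3 and 322 at day 5, and 297 and 228 CPM in the WT pools, and their part in the ratios was not tested.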

How the results depend on the processing

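All 8 members kept the highest level in neutrophil-like cells under each of the 8 other choices of cells and summary. They were selected because several of them lead the neutrophil groups of these same cells, so this order is a description and no independent check. Of the 8, 5 were higher at day 5 than at day 3 in Ccr2-/- neutrophil-like cells, and 8 were with a marker gate in place of clusters, which turned the log2 ratio of Hcar2 to 0.051, of Clec4d to 0.11 and of Fpr2 to 0.046; a mean of cells turned that of Acod1 to -0.065. In whole pools 0 members passed with edgeR, but 4 did with DESeq2 (Acod1, Hcar2, Clec4d and Clec4e). The number passing also changed when the WT day 3 pool was left out, and the cause was not tested. Fits that left out a pool had genotype as their only term, and a genotype with 1 pool left was assumed to vary like the other. All 8 log2 differences stayed above 0 in every alternative. Over all genes the count called was 0 of 23697 in the main analysis, 2808 of 23697 with DESeq2, 297 of 34392 with no filter and 2 of 23697 with no day term.

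In Mo-Mac-like cells 0 members passed, but 1, Clec4e, did with DESeq2, with no filter on low counts and without WT day 5 (leaving out each pool gave 0 to 1), and over all genes 0 were called, against 756 with DESeq2, 921 with no filter, 187 without WT day 5, 23 without WT day 3, 2 with a hashtag ratio of 10 and 1 without cells of over 100000 reads. Clec4e stayed below 0, from -1.29 to -0.78 when pools were left out. The other log2 differences turned easily. Acod1 (0.03) became -0.019 with library sizes only, -0.035 with DESeq2, -0.00025 with no filter and -0.75 without cells of over 100000 reads. Trem3 (0.68) became -0.47 with no day term and -0.76 without such cells, and Trem1 (-0.20) became 0.47 without them. Leaving out each pool moved Acod1 from -1.94 to 1.72, Trem3 from -1.43 to 3.20, Trem1 from -0.91 to 0.59, Fpr2 from -0.33 to 2.29 and Clec4d from -2.20 to 0.14; the cause was not tested.

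Depth limits Fpr1 and Trem3, which a single cell's reads can move outside neutrophil-like cells, and WT neutrophil-like cells are few. With 1 pool per genotype and day, pool, hashtag and condition cannot be told apart. The day term of the model matched the pools by day, and no further pairing was possible because the 4 pools carry no replicate numbers.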
